A study of Mus musculus with 6 samples.

Results

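The nuclear genes for subunits of the mitochondrial respiratory chain were followed in mammary tumours of 2 mouse crosses. Members were taken by gene symbol: Nduf genes of the a, b, c, s and v series (complex I), Sdha to Sdhd (complex II), Uqcr genes and Cyc1 (complex III), Cycs (cytochrome c), Cox4 to Cox8 genes (complex IV) and Atp5 genes (complex V, the ATP synthase). The symbols gave 86 genes of 12393 measured, each read at the brightest of its probe sets, the groups of short probes with which the array reads a transcript. By complex these were 34, 4, 9, 1, 16 and 17 genes, and a further 5 were complex I assembly factors (Ndufaf genes), which match the symbols but are not part of the finished enzyme. The symbol rule itself holds no measured value, but the members and rules were chosen with earlier results of these data known. The probe set of each gene was picked by its measured mean brightness. Another 8 probe sets annotated to several genes, among them the ones for Ndufa11, Ndufb4 and Ndufs6, were left out.

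The samples were 3 mammary tumours of (AKR/J x PyMT)F1 females, called AKR F1 tumours, and 3 of (DBA/2J x PyMT)F1 females, called DBA F1 tumours. All were adult F1 females with 1 parent from the PyMT line, whose transgene, the polyomavirus middle T antigen, drives mammary tumours, so the groups differ in the other parent, the inbred strain AKR/J or DBA/2J. The promoter of the transgene and the strain of the PyMT parent are not given in the sources used here, and the labels do not say whether the samples came from separate animals, so the p-values cover the spread among these arrays, which may be technical in part. Each tumour was measured on 1 Affymetrix array as log2 values, and differences are AKR minus DBA, so that a negative value means a lower level in AKR F1 tumours. Bulk tumour RNA was measured, so fewer cells of a type and less RNA per cell cannot be told apart. Markers of luminal epithelium were high on average on all arrays, with mean log2 values over 12 genes of 12.67, 11.84 and 12.53 in AKR F1 tumours, against 12.47, 11.34 and 12.00 in DBA F1 tumours. The milk protein gene Csn2, one of the 12, read only 6.47 on DBA replicate 2.

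The respiratory chain passes electrons from NADH (through complex I) and succinate (through complex II) to ubiquinone, then through complex III, cytochrome c and complex IV to oxygen. Complexes I, III and IV pump protons across the inner mitochondrial membrane, and complex V uses the gradient to make ATP. Apart from complex II, each complex combines subunits from the nucleus with a few from mitochondrial DNA, and nuclear regulators such as NRF1, GABPA and YY1 are known to bind promoters of many of the nuclear genes.

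Promoter windows of 4 members are shown because Ndufaf1, Atp5l and Ndufs4 had the smallest p-values among the members and Cycs is the electron carrier between complexes III and IV. Each window runs 5′ to 3′ on the strand of the gene, from 250 bases before to 50 bases after the gene start in RefSeq (mouse build GRCm38.p6). Capitals mark exact matches, on either strand, to letters bound by NRF1 (GCATGCGC), GABPA (CCGGAAG), YY1 (AAGATGGCG) or CREB-type factors (TGACGTCA).
Cycs (chr6:50566520-50566819, minus strand): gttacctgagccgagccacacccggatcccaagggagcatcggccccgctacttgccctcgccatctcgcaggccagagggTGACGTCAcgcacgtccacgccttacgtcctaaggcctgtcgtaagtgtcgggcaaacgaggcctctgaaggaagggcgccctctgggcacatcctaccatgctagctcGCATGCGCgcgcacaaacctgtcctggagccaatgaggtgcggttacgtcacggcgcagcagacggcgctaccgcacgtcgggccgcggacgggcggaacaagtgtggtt
Ndufs4 (chr13:114388045-114388344, minus strand): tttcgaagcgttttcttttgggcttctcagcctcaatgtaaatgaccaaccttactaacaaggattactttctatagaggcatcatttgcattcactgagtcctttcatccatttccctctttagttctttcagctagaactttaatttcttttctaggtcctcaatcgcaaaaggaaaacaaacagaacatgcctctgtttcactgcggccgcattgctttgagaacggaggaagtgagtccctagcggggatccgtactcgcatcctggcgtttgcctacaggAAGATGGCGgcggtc
Atp5l (chr9:44920693-44920992, minus strand): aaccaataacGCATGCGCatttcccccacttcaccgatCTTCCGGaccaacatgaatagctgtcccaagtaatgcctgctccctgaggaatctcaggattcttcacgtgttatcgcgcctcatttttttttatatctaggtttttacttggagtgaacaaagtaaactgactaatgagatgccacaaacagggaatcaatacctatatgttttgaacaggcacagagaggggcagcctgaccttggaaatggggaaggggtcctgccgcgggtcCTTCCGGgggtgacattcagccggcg
Ndufaf1 (chr2:119662785-119663084, minus strand): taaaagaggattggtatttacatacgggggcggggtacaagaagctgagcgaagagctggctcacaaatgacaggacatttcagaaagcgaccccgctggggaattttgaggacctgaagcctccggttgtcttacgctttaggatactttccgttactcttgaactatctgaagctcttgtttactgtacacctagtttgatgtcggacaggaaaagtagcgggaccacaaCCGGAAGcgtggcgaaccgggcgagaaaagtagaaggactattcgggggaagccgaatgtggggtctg
In Cycs the CREB-type letters begin at base -169 and the NRF1 letters at base -60 from the gene start. The YY1 letters of Ndufs4 begin at base 36 after the start, those of GABPA in Ndufaf1 at base -18, and Atp5l holds NRF1 letters at base -240 and GABPA letters on the opposite strand at bases -212 and 25.

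Of the 86 members, 71 had a window in the RefSeq table. NRF1 letters were in 12 of them (16.9%), against 3.05% of all 27025 genes with a window, and GABPA letters in 18 (25.4%), against 9.93% of all genes. The YY1 letters were in 6 members (8.45%, against 1.64%) and the CREB-type letters in 4 (5.63%, against 2.03%). Members with NRF1 letters had a median log2 difference between the crosses of -0.35, and members with a window but without these letters one of -0.31. The medians with and without the letters were -0.30 and -0.31 for GABPA, -0.40 and -0.31 for YY1, and -0.52 and -0.31 for the CREB-type letters, which rest on 4 genes. A match describes letters in the window only.

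Most members lay lower in AKR than in DBA F1 tumours, by small amounts. The difference was below 0 in 75 of 86 members (87.2%), whereas it was below 0 in 45.2% of all genes. The median difference was -0.30, against 0.05 over all genes. Quantile normalization left a median of -0.06 with 54 members below 0 (62.8%, against 41.8% of all genes), and cyclic loess one of -0.10 with 57 below 0 (66.3%, against 45.9% of all genes). The 3 AKR values all lay under the 3 DBA values in 39 members (45.3%, against 15.2% of all genes). In brightness decile 10, the brightest, which held 66 members, 29.9% of all genes did so. The AKR values all lay above the DBA values in 2 members, Sdhc and Cox8c (against 23.2% of all genes). The crosses overlapped in the remaining 45 members.

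No member passed an adjusted p of 0.05 by limma with Benjamini-Hochberg adjustment over all probe sets, a test that 22 of 22626 probe sets (0.0972%) and 7 of 12393 genes (0.0565%) passed. At an unadjusted limma p under 0.05 there were 27 members lower and 1 higher in AKR F1 tumours, against 12.6% of all genes in each direction. The smallest adjusted p-values of the members were those of Atp5l and Ndufaf1 (both 0.0837 by limma) and Ndufs4 (0.0913 by limma). These 3 were the members under an adjusted p of 0.10, a level reached by 2.86% of all genes. None of the 160 probe sets of the members passed 0.05 either.

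In complex I, 33 of 34 members lay lower in AKR F1 tumours (median difference -0.36), and the crosses did not overlap in 19 of them (against 15.2% of all genes and 29.9% of genes in brightness decile 10). The complex I median was -0.12 after quantile normalization and -0.16 after cyclic loess. Its accessory subunits, which surround the catalytic core, gave the largest differences. Ndufs4, an accessory subunit next to the NADH-oxidising module, read 9.04, 8.79 and 9.13 in AKR F1 tumours, against 9.87, 9.58 and 9.64 in DBA F1 tumours. All AKR values lay under all DBA values, with a log2 difference of -0.71 (SE 0.146), or 1.64-fold. For Ndufb10, a subunit of the membrane arm, the values were 9.13, 8.32 and 9.29 in AKR against 10.11, 9.61 and 9.77 in DBA F1 tumours. AKR replicate 2 stood lowest and the crosses did not overlap (difference -0.91, SE 0.274, adjusted p = 0.129 by limma).

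Ndufa2, an accessory subunit of the NADH-oxidising module, read 9.94, 9.76 and 10.17 in AKR against 10.57, 10.30 and 10.55 in DBA F1 tumours (difference -0.52, SE 0.152). Differences of similar size without overlap were found for Ndufa10 (-0.55), Ndufc1 (-0.53), Ndufb2 (-0.50), Ndufa1 (-0.48), Ndufa6 (-0.45), Ndufa5 (-0.44), Ndufa8 (-0.43) and Ndufa13 (-0.43). Near 0 were Ndufa3 (-0.02), Ndufb7 (-0.10) and Ndufb1 (-0.13). The single complex I symbol above 0 was Ndufa4 (0.11), a protein later assigned to complex IV, with 12.14, 11.68 and 12.05 in AKR against 12.12, 11.51 and 11.89 in DBA F1 tumours. Its crosses overlapped throughout, and it differed by -0.05 without DBA replicate 2.

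The flavin and the iron-sulfur clusters of complex I are carried by some of its core subunits. All 6 core subunits measured lay lower in AKR F1 tumours, from -0.52 to -0.08. Ndufs1, which holds several of these clusters, read 9.82, 9.68 and 9.63 in AKR against 10.49, 9.94 and 10.26 in DBA F1 tumours. These values did not overlap (difference -0.52, SE 0.166, adjusted p = 0.139 by limma). Ndufv2 (-0.39) and Ndufs3 (-0.35) also lay apart. Ndufv1, which binds NADH, read 10.29, 9.96 and 10.28 in AKR against 10.61, 10.23 and 10.27 in DBA F1 tumours. Its crosses overlapped and its difference of -0.20 became 0.04 after quantile normalization and 0.02 after cyclic loess, which both make the arrays more alike.

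The assembly factors of complex I included the largest difference among all 86 members. Ndufaf1, a chaperone that helps to build the membrane arm, read 7.08, 6.73 and 7.40 in AKR F1 tumours, against 8.42, 7.98 and 8.28 in DBA F1 tumours. The lowest DBA value lay above the highest AKR value, and the difference was -1.16 (SE 0.206, 95% interval -1.65 to -0.67), or 2.24-fold. Over the 14 alternative settings and the deposited values, the Ndufaf1 difference ran from -1.33 to -0.89. Ndufaf5, an enzyme that modifies a core subunit during assembly, read 7.70, 7.38 and 7.35 in AKR against 8.14, 7.91 and 8.05 in DBA F1 tumours, again without overlap (-0.56, adjusted p = 0.11 by limma). For Ndufaf7, a methyltransferase acting on another core subunit, the values were 7.56, 7.49 and 7.59 in AKR against 8.04, 7.54 and 8.18 in DBA F1 tumours, and DBA replicate 2 fell among the AKR values. Ndufaf3 differed by -0.32 and Ndufaf4 by -0.09.

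**Figure D1:**
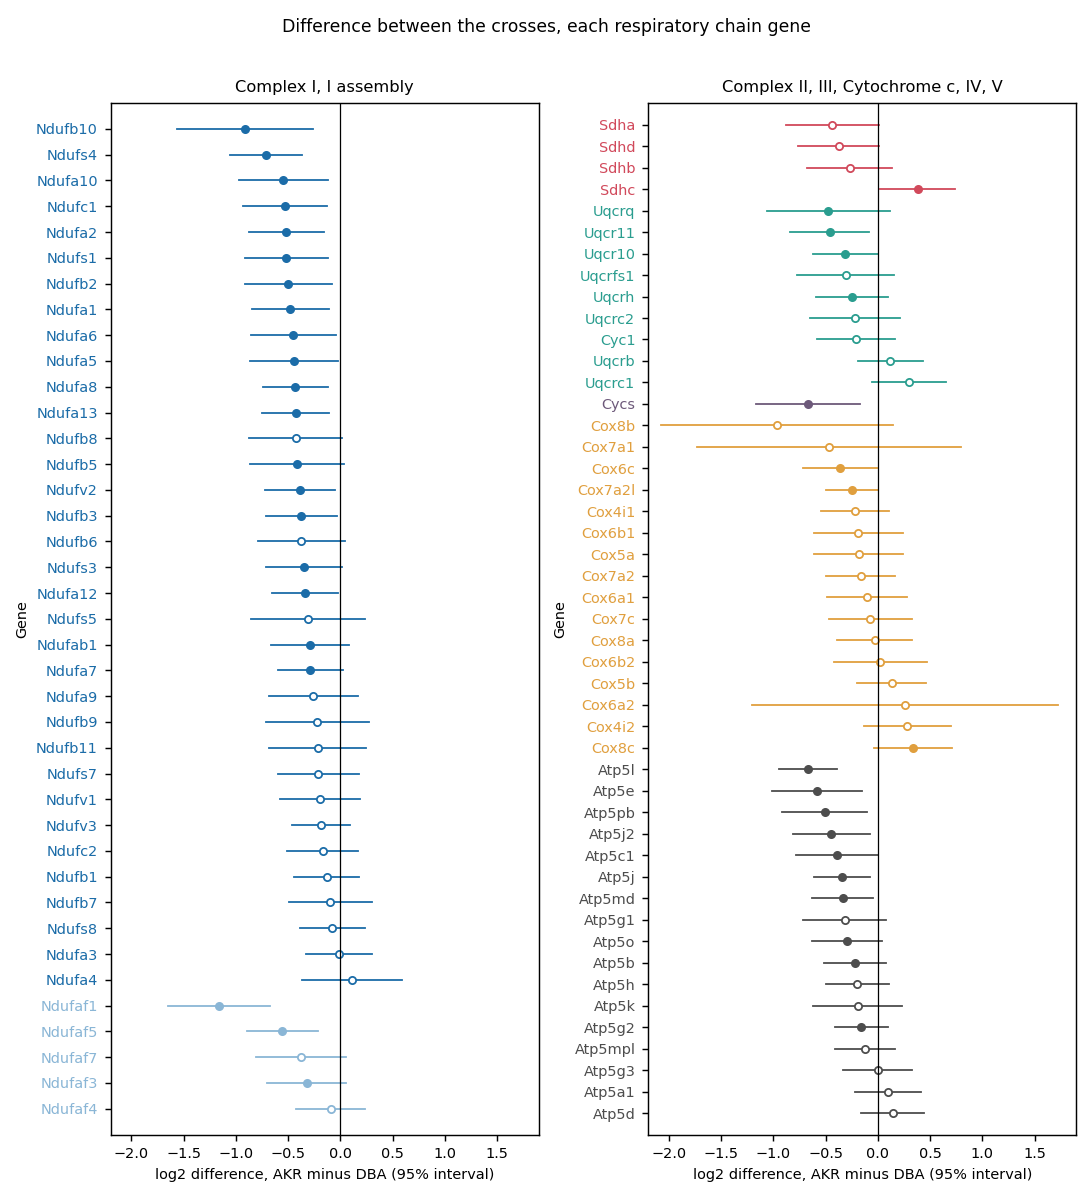
Log2 difference (x axis, AKR minus DBA) of each of the 86 genes (y axis, coloured by complex), with the 95% interval from limma; filled circles mark genes whose AKR and DBA values did not overlap, open circles those that overlapped. Points lie left of 0 in 75 genes, and Ndufaf1 lies furthest left at -1.16.

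Complex II oxidises succinate and joins the citrate cycle to the chain. Its flavoprotein gene Sdha read 11.12, 10.66 and 10.94 in AKR against 11.56, 11.04 and 11.43 in DBA F1 tumours (difference -0.43, SE 0.188), with overlap at 1 array of each cross. Sdhb, the iron-sulfur subunit, read 11.16, 10.84 and 11.02 in AKR against 11.56, 11.04 and 11.23 in DBA F1 tumours (-0.27), again with overlap. The membrane anchor gene Sdhd read 11.40, 11.03 and 10.91 in AKR against 11.62, 11.34 and 11.49 in DBA F1 tumours (-0.37), so AKR replicate 1 reached into the DBA range.

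Sdhc, the other anchor, went the opposite way at its brightest probe set. It read 10.70, 10.58 and 10.55 in AKR against 10.13, 10.50 and 10.06 in DBA F1 tumours, without overlap (difference 0.38, SE 0.151, adjusted p = 0.179 by limma). The other Sdhc probe set differed by -0.24, so the direction for this gene depends on the probe set.

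In complex III, 7 of 9 members lay lower in AKR F1 tumours (median -0.24, which became 0.0030 after quantile normalization). Of the 9, 4 small accessory subunits did so without overlap (44.4%, against 15.2% of all genes and 29.9% of genes in brightness decile 10). Uqcr11 read 10.78, 10.54 and 10.76 in AKR against 11.43, 10.96 and 11.08 in DBA F1 tumours (-0.46, SE 0.159). For Uqcr10 the values were 11.39, 11.41 and 11.28 in AKR against 11.85, 11.50 and 11.66 in DBA F1 tumours (-0.31). Uqcrq (-0.47) and Uqcrh (-0.24) were the others, and both changed sign among the settings, reaching 0.12 and 0.0030. The other Uqcrq probe sets, which are dimmer, were all higher in AKR F1 tumours without overlap (0.38, 0.42 and 0.14).

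The redox subunits of complex III overlapped between the crosses. Uqcrfs1, the Rieske iron-sulfur protein, read 11.32, 10.98 and 11.28 in AKR against 11.89, 11.32 and 11.30 in DBA F1 tumours (-0.31), and the DBA mean rested on replicate 1. Cyc1, or cytochrome c1, read 11.24, 10.89 and 11.08 in AKR against 11.42, 11.04 and 11.39 in DBA F1 tumours, and its difference of -0.21 became 0.05 after quantile normalization and 0.00385 after cyclic loess. Uqcrc1, a core protein with no redox group, lay higher in AKR F1 tumours, at 11.14, 10.87 and 10.94 against 10.91, 10.64 and 10.51 (0.30, SE 0.15, adjusted p = 0.238 by limma). That sign held in all settings, from 0.21 to 0.55, although the crosses overlapped. Uqcrb, which binds ubiquinone, differed by 0.12 at its brightest probe set and by -0.78 at the other.

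Cytochrome c, which carries electrons to complex IV and also triggers apoptosis when released, came from Cycs. It read 11.25, 10.85 and 10.87 in AKR against 11.98, 11.29 and 11.70 in DBA F1 tumours. The AKR values lay under the DBA values with little room between 11.25 and 11.29, and the difference was -0.67 (SE 0.209, adjusted p = 0.135 by limma). Its other probe sets gave -0.25 and -0.72. Over all settings the difference ran from -0.85 to -0.42.

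Complex IV had the median closest to 0 among the complexes, -0.13, which became 0.05 after quantile normalization, 0.02 after cyclic loess and 0.08 without AKR replicate 2 and DBA replicate 1. At their brightest probe sets, 8 of 9 widely used subunits lay lower in AKR F1 tumours. Of these probe sets, only that of Cox6c showed no overlap between the crosses. Other probe sets in the upper 2 brightness deciles lay lower without overlap for Cox5a (-0.54 and -0.43), Cox5b (-0.56), Cox7a2 (-0.48) and Cox6a1 (-0.33). Those of Cox6b1 (-0.24) and Cox8a (0.03) overlapped, as did further ones of Cox5b (-0.17 and -0.23). Cox6c read 12.08, 11.88 and 12.20 in AKR against 12.55, 12.20 and 12.50 in DBA F1 tumours (-0.37, SE 0.149, adjusted p = 0.186 by limma). Cox7a2l, a factor that joins complexes III and IV into supercomplexes, read 10.73, 10.78 and 10.82 in AKR against 11.05, 10.99 and 11.03 in DBA F1 tumours (-0.25, SE 0.105). Cox4i1 read 12.42, 12.17 and 12.48 in AKR against 12.64, 12.44 and 12.66 in DBA F1 tumours (-0.22), and these ranges overlapped. At their brightest probe sets, Cox6b1 (-0.19), Cox7a2 (-0.17), Cox6a1 (-0.10) and Cox8a (-0.03) lay closer to 0. After quantile normalization they differed by 0.05, 0.06, 0.11 and 0.17.

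Complex IV also has isoforms of restricted tissues, and the 6 measured had a median difference of 0.14, with 2 of them below 0. Cox6a2, the heart and muscle form of Cox6a1, read 7.27, 7.79 and 7.61 in AKR against 8.85, 6.66 and 6.39 in DBA F1 tumours. Cox7a1, the muscle form of Cox7a2, read 6.24, 6.65 and 6.70 in AKR against 8.30, 6.11 and 6.58 in DBA F1 tumours. Cox8b, the muscle form of Cox8a, read 7.38, 8.46 and 7.96 in AKR against 9.84, 8.76 and 8.10 in DBA F1 tumours. All of them were highest on DBA replicate 1.

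The widely used partners varied less between arrays. Cox6a1 read 12.89, 12.52 and 12.98 in AKR against 13.04, 12.76 and 12.90 in DBA F1 tumours. Cox7a2 read 12.72, 12.40 and 12.76 in AKR against 12.89, 12.72 and 12.76 in DBA F1 tumours. Cox8a read 12.88, 12.48 and 12.53 in AKR against 12.81, 12.58 and 12.58 in DBA F1 tumours, and Cox6b1, the partner of testis-type Cox6b2, read 12.29, 11.92 and 12.44 in AKR against 12.61, 12.20 and 12.39 in DBA F1 tumours. At these probe sets the crosses overlapped in each gene, whereas another probe set of Cox6a1 and of Cox7a2 lay apart, as given above.

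The 18 skeletal muscle markers measured, such as the actin gene Acta1, moved with that array too, with means of 8.48, 8.29 and 9.596 in AKR against 11.34, 6.49 and 6.45 in DBA F1 tumours. Acta1 itself read 11.24, 10.17 and 12.24 in AKR against 13.29, 6.29 and 6.59 in DBA F1 tumours. Means of 8 white adipocyte markers were 7.35, 7.15 and 7.34 in AKR against 9.19, 6.06 and 6.88 in DBA F1 tumours. The muscle and fat markers and the muscle isoforms were thus highest on the same array, and the part of other tissues in the values of the members was not tested. Heart muscle markers (7 genes) averaged 6.15, 6.98 and 6.04 in AKR against 6.07, 6.17 and 5.86 in DBA F1 tumours, and 5 brown adipocyte markers 6.46, 6.73 and 6.38 in AKR against 7.41, 6.40 and 6.33 in DBA F1 tumours. Smooth muscle and myoepithelium markers (7 genes) averaged 8.48, 8.71 and 8.28 in AKR against 8.48, 9.77 and 10.02 in DBA F1 tumours. Without DBA replicate 1, Cox7a1 differed by 0.18 rather than -0.47.

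The further isoforms were dimmer or tied to other tissues. Cox4i2, known from lung and from hypoxic cells, read 7.0, 7.39 and 6.79 in AKR against 6.88, 6.80 and 6.67 in DBA F1 tumours (0.28). Testis-type Cox8c read 9.31, 9.76 and 9.39 in AKR against 9.25, 9.21 and 9.003 in DBA F1 tumours without overlap (0.33, adjusted p = 0.221 by limma). Testis-type Cox6b2 read 6.54, 6.66 and 6.39 in AKR against 6.33, 6.88 and 6.31 in DBA F1 tumours (0.02). All 7 testis markers measured, such as the protamine gene Prm1 (0.42), also lay higher in AKR F1 tumours, and dim probe sets in general had medians above 0, as given below. Cox8c itself was not dim and lay in brightness decile 9, where all genes had a median of -0.20.

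**Figure D2:**
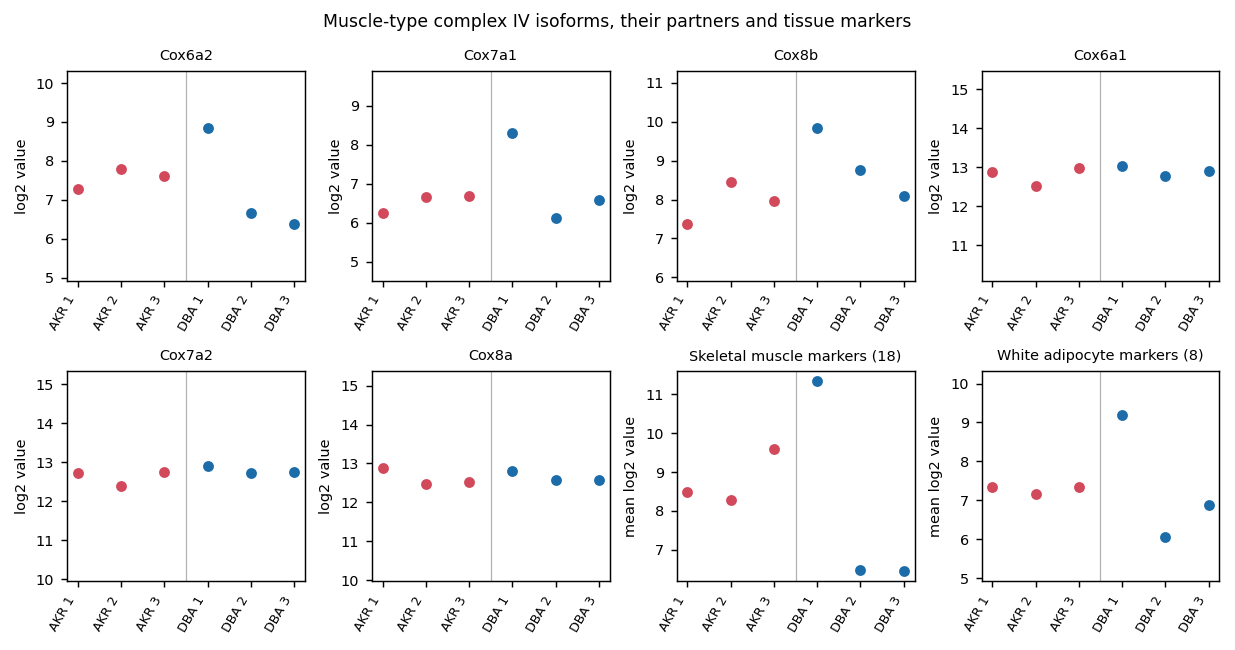
Log2 values on each array (AKR F1 red, DBA F1 blue) of the muscle-type genes Cox6a2, Cox7a1 and Cox8b, of their widely used partners Cox6a1, Cox7a2 and Cox8a, and mean log2 values of 18 skeletal muscle and 8 white adipocyte markers; all y axes span the same number of log2 units at different levels. The muscle-type genes and both marker means are highest on DBA replicate 1, while the partners vary little.

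Complex V, the ATP synthase, had 15 of 17 members lower in AKR F1 tumours (median -0.30), 10 of them without overlap (against 15.2% of all genes and 29.9% in brightness decile 10). The complex V median was -0.06 after quantile normalization and -0.09 after cyclic loess. Atp5l, or subunit g, a small membrane subunit that helps to form dimers of the enzyme, read 10.51, 10.43 and 10.63 in AKR against 11.24, 11.11 and 11.22 in DBA F1 tumours. A gap wider than either range separated the crosses, and the difference was -0.67 (SE 0.116, 95% interval -0.95 to -0.39), or 1.59-fold. Other small membrane subunits gave -0.45 (Atp5j2), -0.34 (Atp5md), -0.19 (Atp5k) and -0.12 (Atp5mpl).

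In the F1 head, which makes ATP, the subunits differed among themselves. The catalytic beta subunit gene Atp5b read 12.95, 12.70 and 12.83 in AKR against 13.16, 13.02 and 12.95 in DBA F1 tumours (-0.22), and the highest AKR value all but met the lowest DBA value. The alpha subunit gene Atp5a1 read 13.01, 12.81 and 12.71 in AKR against 12.88, 12.65 and 12.70 in DBA F1 tumours (0.10), with overlap. Atp5e, the epsilon subunit of the central stalk, read 10.87, 10.41 and 10.70 in AKR against 11.51, 11.02 and 11.19 in DBA F1 tumours (-0.58, SE 0.181, adjusted p = 0.135 by limma). Atp5c1 differed by -0.39 and Atp5d by 0.14.

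All 4 genes of the peripheral stalk, which holds the head still, lay lower in AKR F1 tumours. Atp5j read 11.79, 11.76 and 11.82 in AKR against 12.15, 12.02 and 12.23 in DBA F1 tumours (-0.35, SE 0.113), and Atp5pb (-0.51) and Atp5o (-0.30) also lay apart. The 3 genes for the subunit of the rotating c ring differed by -0.32 (Atp5g1), -0.16 (Atp5g2) and -0.00375 (Atp5g3).

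**Figure D3:**
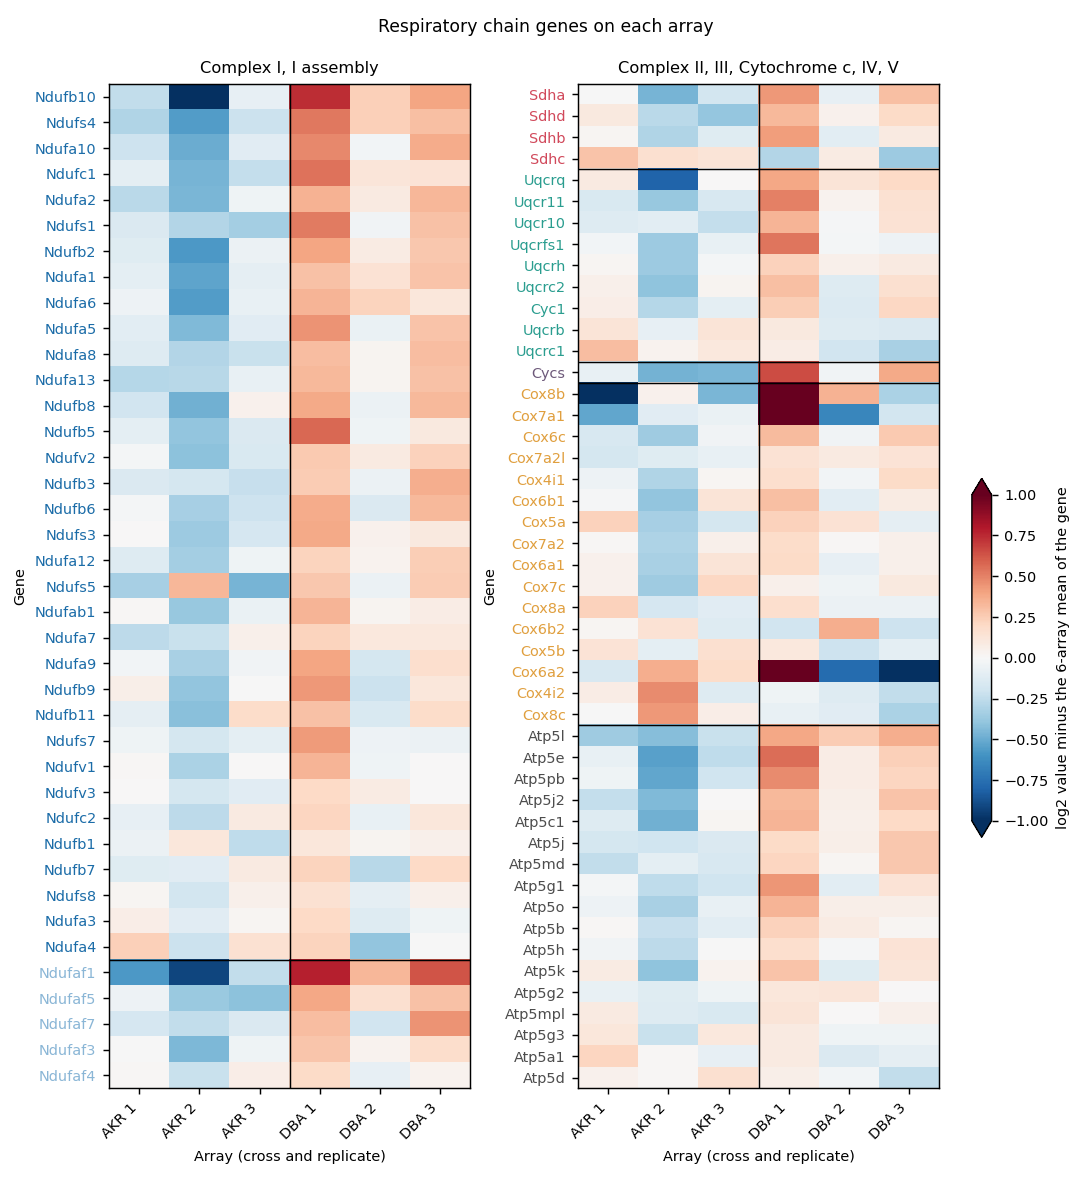
Log2 value of each gene (rows, coloured by complex) on each array (columns) minus the mean of that gene over the 6 arrays, in log2 units, with AKR F1 left of DBA F1. DBA replicate 1 holds the highest value of 63 genes and AKR replicate 2 the lowest value of 59.

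A pair of arrays set the outer values of most members. DBA replicate 1 was the highest of the 6 arrays in 63 members (73.3%, against 17.1% of all genes) and AKR replicate 2 the lowest in 59 members (68.6%, against 35% of all genes). The median deviation of the members from their own 6-array mean was -0.05, -0.31 and -0.08 on the AKR arrays, against 0.30, -0.02 and 0.13 on the DBA arrays. Complex I followed this order, with -0.10, -0.34 and -0.08 in AKR against 0.34, -0.03 and 0.19 in DBA F1 tumours. DBA replicate 2 thus lay close to AKR replicates 1 and 3 in both, and AKR replicate 2 lay below all of them. Over all genes of brightness deciles 9 and 10 the median deviations were -0.0020, -0.29 and 0.01 on the AKR arrays, against 0.12, 0.03 and 0.13 on the DBA arrays, so the low values of AKR replicate 2 were shared by bright genes in general.

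Measures of RNA quality differed between the same arrays. The difference between probe sets at the 3′ and 5′ ends of the Gapdh transcript was 0.05, 0.31 and 0.27 on the AKR arrays, against 1.20, 0.12 and 0.75 on the DBA arrays. Among the DBA arrays its order was that of the members, while among the AKR arrays it was the reverse, with AKR replicate 2 highest for Gapdh and lowest for the members. For beta-actin it was 0.34, 0.36 and 0.51 in AKR against 0.90, 0.36 and 0.69 in DBA F1 tumours. The part of RNA quality in the members' differences was not tested. Without DBA replicate 1 the median over members was -0.19, without AKR replicate 2 it was -0.21, and without both it was -0.12, with 60 of 86 members below 0 against 39.5% of all genes.

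The members' probe sets were bright, and bright probe sets as a whole lay lower in AKR F1 tumours. In decile 10 of mean brightness over all probe sets, the brightest one, which held 66 members, the median difference was -0.27 for the members and -0.20 for all genes, while in the third decile all genes had a median of 0.25. Within that decile, 59 of 66 members lay below 0, against 74.2% of all genes. Lower in AKR F1 tumours without overlap were 30 of the 66 members, against 29.9% of all genes. After subtraction of the median of all genes in its own decile, the difference stayed below 0 in 61 of 86 members, with a median of -0.12. The median over members was -0.06 after quantile normalization and -0.10 after cyclic loess, which removes differences that depend on brightness. Members lying lower in AKR F1 tumours without overlap then numbered 10 (11.6%, against 11.3% of all genes) and 18 (20.9%, against 13.8% of all genes).

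**Figure D4:**
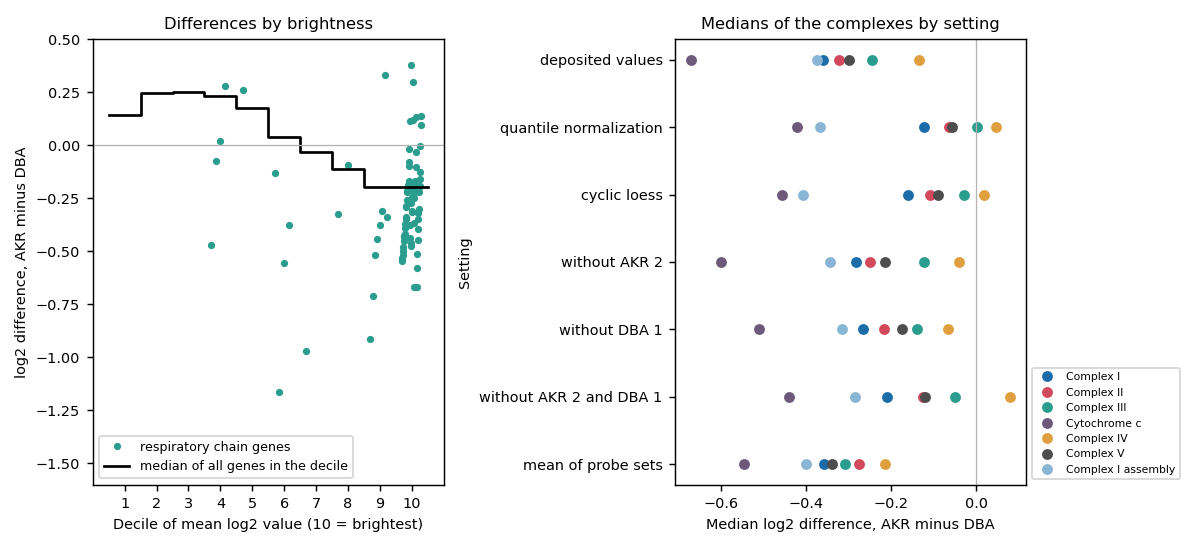
Left, log2 difference (AKR minus DBA) of each member by decile of mean log2 value, with the median of all genes in each decile as a line; right, median difference of the genes of each complex (x axis) under 7 settings (y axis). The line falls to -0.20 in decile 10, the complex III median reaches 0.0030 after quantile normalization, and the complex IV median lies above 0 after quantile normalization, after cyclic loess and without AKR replicate 2 and DBA replicate 1.

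Single members kept their direction to different degrees. Over the deposited values and all alternatives run, 47 members stayed below 0, of which 22 belong to complex I and 10 to complex V, 6 stayed above 0 and the rest had both signs. The 6 were Sdhc, Uqcrc1, Cox8c, Cox4i2, Atp5d and Atp5a1. A difference of -0.25 or further from 0 was kept in every setting by 13 members, namely Ndufs4, Ndufa2, Ndufb10, Ndufc1, Ndufb2, Ndufs1, Cycs, Cox8b, Atp5e, Atp5pb, Atp5l, Ndufaf1 and Ndufaf5. The alternatives share most of their values, so this count describes the settings and is no test.

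Several probe sets read 46 of the members, and in 34 of these all probe sets had the same sign. In 31 genes the second brightest probe set was also in the upper 2 deciles, and it lay further below 0 than the brightest one in 21 of them (medians of -0.31 and -0.20). With the brightest probe set first, the differences of members with both signs were those of Atp5a1 (0.10, -0.21 and 0.79), Cox5b (0.13, -0.17, -0.23, -0.56, 0.47 and 0.22), Cox8a (-0.03, 0.03 and 0.15), Ndufa10 (-0.55 and 0.09) and Ndufa12 (-0.34, 0.27, -0.14 and 0.37). The same held for Ndufab1 (-0.29, 0.998 and -0.43), Ndufb9 (-0.22, -0.34 and 0.42), Ndufs4 (-0.71, -0.69 and 0.03), Ndufs8 (-0.08, -0.14, -0.40, -0.13, -0.52 and 0.06) and Uqcrq (-0.47, 0.38, 0.42 and 0.14), and for Sdhc and Uqcrb as given above. Of the brightest probe sets, 12 have names ending in s_at and 7 in x_at, which the maker uses for probes that can match further transcripts. Respiratory chain genes have many pseudogenes, so values from such probe sets, Sdhc and Ndufa2 among them, may include other transcripts.

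Genes around the chain were read from lists chosen with earlier results of these data known. Of 17 pyruvate dehydrogenase and citrate cycle genes, all lay lower in AKR F1 tumours (median -0.35), 10 without overlap and none past an adjusted p of 0.05 by limma. Over all genes 45.2% lay below 0 and 15.2% did so without overlap, and in brightness decile 10 these shares were 74.2% and 29.9%. Those with the smallest p were Sucla2 (-0.53) and Suclg2 (-0.50), subunits of the succinyl-CoA ligases, and Dld (-1.09), the dehydrogenase shared by the large 2-oxoacid complexes. None of 37 assembly factors passed, with 30 below 0 (median -0.19). The list includes the 5 Ndufaf members, and Cox18, which inserts a complex IV subunit into the membrane, differed by -0.61.

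Among 21 genes of nucleotide exchange and the outer membrane, 17 lay lower in AKR F1 tumours (median -0.33) and none passed. Slc25a4, an ADP/ATP carrier of muscle and heart, read 10.82, 10.53 and 10.73 in AKR against 11.54, 11.72 and 11.50 in DBA F1 tumours, with DBA replicate 2 highest (-0.90, adjusted p = 0.0684 by limma). Tomm40, the outer membrane import channel, lay higher in AKR F1 tumours (1.13), and Immt, which shapes the cristae, lower (-0.51). Of 25 regulators of mitochondrial biogenesis and mitochondrial DNA, 16 lay below 0 (median -0.14) and none passed. Slirp, which stabilises mitochondrial mRNA, differed by -0.83, the coactivator gene Ppargc1a by -0.57 at a dim probe set, and Gabpb1, the partner of GABPA, by -0.52. Without overlap, 4 of the 25 lay lower in AKR F1 tumours (16%, against 15.2% of all genes). Another 5 lay higher without overlap (against 23.2% of all genes), among them Esrra (0.59), Polrmt (0.48) and Ppargc1b (0.44). Among 16 other donors to ubiquinone and coenzyme Q genes, 10 lay below 0 (median -0.11) and none passed. They were led by Gpd2, the glycerol phosphate dehydrogenase of mitochondria (-1.08), Coq8b (0.43) and Etfa (-0.53).

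Mitochondrial ribosomal proteins had 63 of 74 genes below 0 (median -0.19), against 35 of 45 cytosolic ribosomal protein genes (median -0.10), and none of either passed. Genes lower in AKR F1 tumours without overlap numbered 19 (25.7%) and 20 (44.4%), so the share among cytosolic ribosomal proteins was close to the 45.3% of the members. A transcript of mitochondrial DNA, the complex I subunit gene listed as ND5, read 12.17, 12.09 and 12.27 in AKR against 12.39, 12.27 and 12.26 in DBA F1 tumours (-0.13). AKR replicate 3 reached into the DBA range. Of 10 hypoxia response genes, 9 were measured and all lay lower in AKR F1 tumours (median -0.61), with means of 8.999, 8.60 and 8.73 in AKR against 9.03, 10.53 and 9.30 in DBA F1 tumours. DBA replicate 2 was highest there and not, in most cases, in the respiratory chain genes, of which it was highest in 2.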

How the data were processed

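RNA of snap-frozen tumours was isolated with Trizol, per the labels' protocols. The authors deposited log2 values of 22690 probe sets on 6 arrays. Per the submitters' processing notes, the tools were MAS5 and RMA, without version or role, so the one behind the log2 values is unknown. The values run from 3.65 to 14.73, with array medians from 7.52 to 7.57, and no detection calls were used, so dim values can lie at background. The number of arrays limits the precision.

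The 64 control probe sets were left out, leaving 22626. Of these, 20380 had 1 gene symbol in the platform annotation, 691 had several and 1555 had none. Each of 12393 genes was read at its probe set with the highest 6-array mean. AKR F1 and DBA F1 tumours (grouped by source name, replicates numbered in accession order) were compared by lmFit and eBayes of limma 3.58.1 (R 4.3.3), two-sided, with Benjamini-Hochberg adjustment over every probe set tested and a threshold of 0.05, checked on simulated arrays. Errors after SE are limma's. Alternatives were quantile normalization, median centring, cyclic loess, only bright probe sets, a trended and robust prior, array weights, gene means, an adjusted p of 0.10 and leaving out arrays. Promoter windows came from RefSeq (GRCm38.p6). Figures used matplotlib 3.10.9.

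Values on every array were given for the 3 members of each complex with the smallest p, complex II, cytochrome c, tissue-restricted isoforms with their partners, and catalytic or core subunits. Of each pathway list the 3 genes with the smallest p were named. Other genes were named by their differences. The members, lists and rules were chosen with earlier results of these data known. The printed promoters, motifs and ribosomal protein lists were chosen after the values were seen.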

Additional observations from a re-analysis of the deposited data

How the results depend on the processing

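No paired analysis was possible because the labels carry no replicate numbers, and the numbers used only name the samples. Under limma the number of probe sets called was 810 at an adjusted p of 0.10, 102 among probe sets brighter than the median, 36 after quantile normalization, 34 after cyclic loess, 1 over gene means and 657 without AKR replicate 2 and DBA replicate 1. Leaving out 1 array gave 1 to 263 probe sets called, the highest number without DBA replicate 1. Array weights gave 9969 of 22626 probe sets and 36 of 86 members called, so the members were not called more often than probe sets in general. The weight estimate stopped before converging and put 38.2 on AKR replicate 1 and 0.123 on AKR replicate 2. At an adjusted p of 0.10 there were 3 members called, and 0 under the other settings. The median difference of the members was -0.062 after quantile normalization, -0.10 after cyclic loess and -0.12 without AKR replicate 2 and DBA replicate 1, and from -0.39 to -0.19 with 1 array left out. Of 37 genes followed singly, 27 kept their sign in every setting that held them. The others changed sign as follows, and the cause was not tested. Members outside these 37 also reached values above 0, among them Uqcrq (0.12), Uqcrh (0.0030), Ndufb7 (0.14), Ndufa3 (0.21), Atp5k (0.06), Atp5mpl (0.13), Atp5g2 (0.08) and Ndufaf4 (0.07). Cox6a1 differed by 0.11 after quantile normalization, 0.10 after cyclic loess and 0.10 without both arrays (-0.19 to 0.03 with 1 left out). Cox6b1 differed by 0.049, 0.019 and 0.067 under the same settings (-0.30 to -0.04), Cox8a by 0.17, 0.17 and 0.12 (-0.15 to 0.05), and Cox6b2 by -0.12, -0.18 and -0.13 (-0.08 to 0.21). Ndufv1 differed by 0.040, 0.015 and 0.030 (-0.27 to -0.08). After quantile normalization and cyclic loess, Cox7a2 differed by 0.057 and 0.035, and Cyc1 by 0.051 and 0.00385. Cox8a also differed by 0.22 with array weights and 0.048 as a gene mean, and Cox6b2 by -0.00064 after median centring. With 1 array left out, Cox7a1 ran from -0.91 to 0.18 (0.12 without both), Cox6a2 from -0.20 to 1.04 and Ndufa4 from -0.054 to 0.26 (0.39 without both). Dim probe sets, for which no detection call was used, limit what the tissue-restricted isoforms show.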
